A study of Rattus norvegicus with 12 samples.

Results

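Glycolysis, the pentose phosphate route and the entry of pyruvate into mitochondria were followed in whole rat mammary glands through a list of 33 glucose metabolism genes. The members are a named list of genes of these routes, and were looked up by Entrez identifier in a count table of 16511 genes. Of the 33 members, 31 matched a row of the table, and Hk1 and Pgd, for which no row was matched, are not analysed here. Of the 31, 29 passed the filter on low counts and were tested, and Slc2a3 and Pfkfb4 were not tested.

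RNA was sequenced from 12 snap-frozen mammary glands of rat offspring aged PND21, 1 gland from each litter, so each library stands for a separate litter. The HFB group held 6 glands from offspring exposed before birth to a high fat butter diet, and the CTL group held 6 glands from offspring given the control AIN diet. The labels name no strain, genotype or other agent. The associated paper names Sprague-Dawley rats, but it describes microdissected epithelia and diets that ended at birth, so the strain of these whole glands is not certain. The design text dates the diets from gestation day 1 to PND 23 and elsewhere gives the newborns AIN alone, so the length of the exposure was not settled. Libraries carry the numbers 1 to 6 in the HFB group and 7 to 11 and 14 in the CTL group. What the numbers stand for is not given, and any effect that goes with them cannot be told apart from diet. The libraries held 2320267 to 2944680 counts each. Levels are given in CPM, the counts scaled to a library total adjusted by TMM normalization (factors of 0.88 to 1.15). A gene with fewer than 3 counts was taken as not detectable. Before that adjustment, 3 counts were 1.02 to 1.29 CPM, depending on the library.

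Glycolysis splits glucose into pyruvate in a chain of cytosolic reactions, and most of its steps can be served by more than a single isozyme with its own tissue preference. The pentose phosphate route branches off at glucose 6-phosphate and supplies NADPH and ribose, and its non-oxidative arm, run by transketolase and transaldolase, returns carbon to glycolysis. Pyruvate is either reduced to lactate or carried into mitochondria and turned into acetyl-CoA by the pyruvate dehydrogenase complex, which pyruvate dehydrogenase kinases switch off. In the mammary gland these routes feed fat synthesis in the adipocytes of the fat pad and, during lactation, lactose and milk fat synthesis in the epithelium. Muscle fibres near the gland use the same pathway with their own isozymes.

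Markers of the cell types in the gland differed between libraries of the same diet, and HFB 6 and CTL 14 stood apart from the other 10. The 7 adipocyte markers summed to 17010 CPM in HFB 6 and 14390 CPM in CTL 14, against 31060 to 40130 CPM elsewhere, and Fabp4 was the most abundant of them. The 7 measured lymphoid markers summed to 842 CPM in HFB 6 and 1065 CPM in CTL 14, against 17.4 to 336 CPM elsewhere, with Ptprc the most abundant. Libraries HFB 1 and HFB 2 came next in lymphoid markers, at 336 and 156 CPM.

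The 9 skeletal muscle markers ran from 223 CPM in CTL 10 to 7725 CPM in HFB 6, with Acta1 the most abundant. The 6 measured epithelial markers, led by Krt8, ran from 115 CPM in HFB 1 to 633 CPM in HFB 6. Of the brown fat list, Cidea was the most abundant, and Elovl3 and Dio2 were under 3 counts in 11 and 10 libraries. Col3a1 led the fibroblast markers (22650 to 52290 CPM in sum), Pecam1 the endothelial markers (132 to 386 CPM) and Alas2 the red blood cell markers (28.3 to 338 CPM). No marker of these lists was at 0 in all libraries. Of the 40 marker genes tested, the diet comparison in edgeR gave 0 with an adjusted p under 0.05 and 0 with an unadjusted p under 0.05. In a whole gland, fewer cells of a type and less RNA per cell cannot be told apart.

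The question put to the genes was whether glucose metabolism transcripts differed between the diets at PND21. No member passed the adjusted threshold. Of 29 tested members, 0 had an adjusted p under 0.05 by the quasi-likelihood method of edgeR (Benjamini-Hochberg adjustment over 9382 genes), where 0% of all genes did, and every member had an adjusted p of 0.999. At an unadjusted p under 0.05, 2 members passed, Aldoa and Pgam1, both higher with HFB, against 2.34% of all genes tested in either direction and 1.3% in the higher direction. DESeq2 gave 0 members past its adjusted threshold and 5 at an unadjusted p under 0.05, where 271 of all 9382 genes passed the latter. Limma-voom with sample quality weights gave 0 and 11 members (Aldoa, Pgk1, Eno1, Pkm, Pdhb, Pdk1, Pfkfb1, Tkt and Taldo1 higher, Aldoc and Pdk3 lower), and 613 of all genes passed the latter.

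The log2 fold change was above 0 for 23 of the 29 tested members and below 0 for 6, while 4694 of the 9382 genes tested lay above 0. The median log2 fold change was 0.22 over the tested members and 0.00 over all genes tested. In 11 members at least 5 of 6 HFB libraries lay above the CTL median, against 14.9% of all genes tested, and in 2 members at least 5 of 6 lay below it, against 14.5%. The HFB and CTL libraries overlapped for each of the 31 matched members, and for all but 13 (0.139%) of the 9382 genes tested. Some marker lists lay to 1 side of 0 as well: 9 of 9 tested skeletal muscle markers had a log2 fold change above 0 (median 0.42), and 6 of 6 epithelial (median -0.19) and 6 of 6 fibroblast markers (median -0.14) lay below 0. In 5 of the 6 fibroblast markers at least 5 of 6 HFB libraries lay below the CTL median. The 3 tested lymphoid markers (median 0.31) and both red blood cell markers (median 0.64) lay above 0. Their part in the result was not tested. The members share samples and vary together, so these counts describe the list and no test of the list was made.

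The summed level of the 31 members was 10300 ± 2038 CPM (SD, n = 6) with HFB and 8191 ± 1553 CPM (SD, n = 6) with CTL. HFB 1, HFB 2 and HFB 3 had the highest sums, at 12702, 11574 and 12075 CPM, followed by CTL 8 at 10798 CPM. CTL 14 had the lowest, at 6400 CPM.

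**Figure D1:**
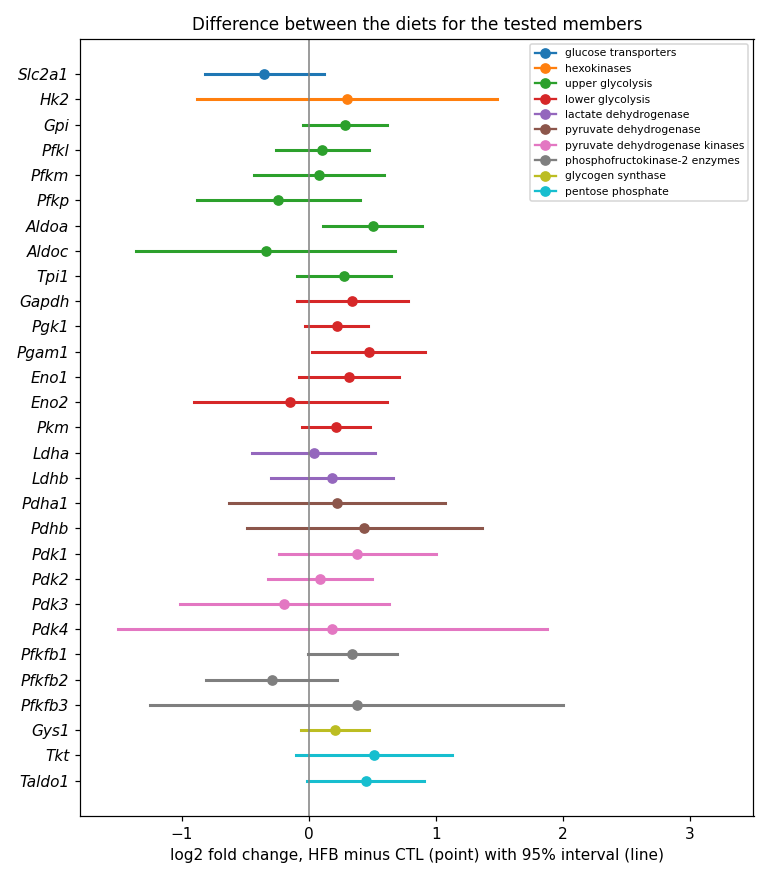
Log2 fold change of HFB against CTL (x axis) for the 29 tested members (y axis, coloured by role), with points for the estimate of edgeR's fit and lines for its 95% interval. The intervals of Aldoa (0.11 to 0.89) and Pgam1 (0.03 to 0.92) do not reach 0, and that of Pdk4 (-1.50 to 1.87) is the widest.

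Glucose enters cells through transporters, and Slc2a1 encodes the widely expressed carrier Glut1. Its lowest, median and highest levels were 11.2, 17.6 and 19.4 CPM with HFB and 15.4, 19.0 and 31.8 CPM with CTL. The highest value was in CTL 14 and the lowest in HFB 2, and the groups overlapped. Its log2 fold change was -0.35 (standard error 0.22, adjusted p = 0.999), and without CTL 14 it was -0.18. Slc2a3, the high-affinity carrier Glut3, lay between 0.404 and 5.37 CPM and was under 3 counts in 3 libraries.

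Slc2a4, the insulin-regulated carrier Glut4 of fat and muscle, was read as a companion gene of the pathway. It was at 330 ± 140 CPM (SD, n = 6) with HFB and 308 ± 99.2 CPM (SD, n = 6) with CTL, with its lowest values, 135 and 142 CPM, in HFB 6 and CTL 14.

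Hexokinase 2, the insulin-responsive form that phosphorylates glucose in fat and muscle, differed 10.7-fold between its highest and lowest libraries. Hk2 was at 5.43, 36.9 and 58.0 CPM (lowest, median and highest) with HFB and at 7.96, 27.8 and 40.4 CPM with CTL. HFB 1, HFB 2 and HFB 3 were high, and HFB 5 (6.64 CPM), HFB 6 and CTL 14 were low, so that the HFB group held both ends of the range. Between the diets its log2 fold change was 0.30 with a standard error of 0.55, and with 4 marker scores as covariates it was -0.25. With single libraries left out it lay between 0.068 (without HFB 2) and 0.52 (without HFB 6).

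Aldoa encodes the aldolase that splits fructose 1,6-bisphosphate into triose phosphates, the form of muscle and most other tissues. Aldoa (Entrez 24189) was at 1610, 2712 and 3010 CPM (lowest, median and highest) with HFB and at 1494, 1680 and 2285 CPM with CTL. In HFB, 5 of 6 libraries lay above every CTL library, and HFB 4 fell among the CTL values. HFB against CTL gave a log2 fold change of 0.50 (standard error 0.18, 95% interval 0.11 to 0.89, adjusted p = 0.999). It ranged from 0.45 to 0.60 with single libraries left out, and was 0.51 with the skeletal muscle score as a covariate and 0.39 with 4 marker scores, with an unadjusted p under 0.05 in every alternative. Over the 12 libraries the level of Aldoa had a Pearson r of -0.06 with the muscle score (permutation p = 0.845, Spearman rho = 0.01, permutation p = 0.974, adjusted p = 0.898 and 0.983 over 116 relations, r = 0.17 without HFB 1 and CTL 10), and the source of its difference between the diets was not tested.

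Pgam1, the phosphoglycerate mutase of most tissues, moves the phosphate group of phosphoglycerate in lower glycolysis. Pgam1 (Entrez 24642) was at 31.2, 47.7 and 76.0 CPM (lowest, median and highest) with HFB and at 29.6, 34.6 and 43.2 CPM with CTL. HFB 6 was the highest library, HFB 2, HFB 3 and HFB 5 also lay above all CTL libraries, and HFB 1 and HFB 4 fell among them. For Pgam1 the log2 fold change was 0.47 (standard error 0.21, 95% interval 0.03 to 0.92, adjusted p = 0.999). In HFB, 5 of 6 libraries lay above the CTL median. Without HFB 6 the log2 fold change was 0.29, a move of more than 1.5 times, and the unadjusted p was no longer under 0.05. That was also lost in limma-voom, with the skeletal muscle score as a covariate, and without any 1 of HFB 2, HFB 5, CTL 7, CTL 9, CTL 10 and CTL 11.

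The promoters of Aldoa and Pgam1 are printed because these members had the smallest unadjusted p. They are RefSeq sequences of the GRCr8 build, from 250 bases before to 50 after the start, and the capitals mark ACGTG, the core letters of the hypoxia response element, on either strand. Aldoa has 3 starts in the table, and the start shown, at chr1:190836728-190837027, minus strand, is the only one with the motif. The Pgam1 window lies at chr1:250672902-250673201, plus strand.
Aldoa: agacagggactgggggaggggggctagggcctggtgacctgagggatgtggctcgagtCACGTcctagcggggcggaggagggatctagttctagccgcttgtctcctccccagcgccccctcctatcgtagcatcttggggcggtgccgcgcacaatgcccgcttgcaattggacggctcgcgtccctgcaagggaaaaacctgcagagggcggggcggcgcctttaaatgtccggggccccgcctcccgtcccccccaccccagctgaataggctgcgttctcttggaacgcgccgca
Pgam1: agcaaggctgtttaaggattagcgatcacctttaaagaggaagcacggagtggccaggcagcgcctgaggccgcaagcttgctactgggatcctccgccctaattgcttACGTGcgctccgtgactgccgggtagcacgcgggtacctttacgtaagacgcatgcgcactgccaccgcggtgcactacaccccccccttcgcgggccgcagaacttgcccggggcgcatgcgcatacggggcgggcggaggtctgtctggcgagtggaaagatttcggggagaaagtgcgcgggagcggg

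Of the 31 matched members, 29 had a promoter in the table, and Slc2a3 and Pgk1 had none. ACGTG was present in 15 of the 29 (51.7%), against 20.9% of all 27457 genes with a promoter and 27.2% of the 7670 among the genes tested. CACGTG, the E-box letters, which contain ACGTG, was present in 4 members (13.8%), against 7.08% of all and 9.91% of those tested. GGGCGG, the GC box, was present in 21 members (72.4%), against 36.0% of all and 64.6% of those tested. A gene with several starts was counted once if any window held the letters, and binding of a factor was not measured.

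**Figure D2:**
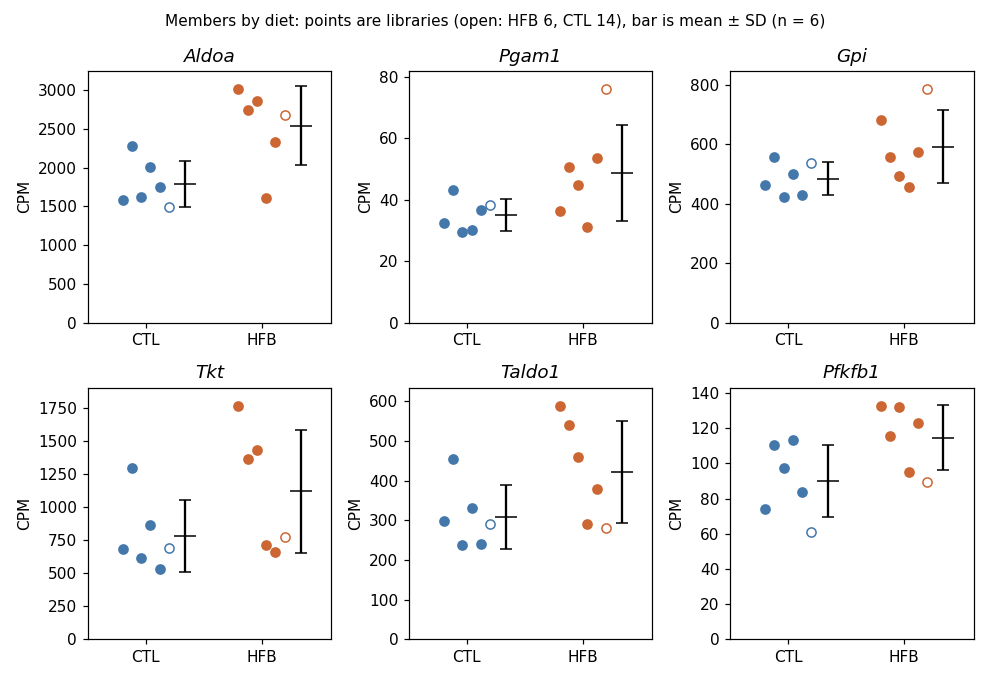
CPM (y axis, from 0) of Aldoa, Pgam1, Gpi, Tkt, Taldo1 and Pfkfb1 by diet (x axis). Each point is a library, open for HFB 6 and CTL 14, and the bar is the mean ± SD of 6 libraries. The diets overlap in each panel, and the HFB libraries spread more widely than the CTL libraries in all panels except Pfkfb1.

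Of the other upper glycolysis members, Gpi, which turns glucose 6-phosphate into fructose 6-phosphate, was at 592 ± 122 CPM (SD, n = 6) with HFB and 485 ± 56.5 CPM (SD, n = 6) with CTL, and 5 of 6 HFB libraries lay above the CTL median. Its log2 fold change was 0.29 (standard error 0.15, adjusted p = 0.999), and it was 0.18 without HFB 6, the highest library. Tpi1, which interconverts the triose phosphates, was above the CTL median in 6 of 6 HFB libraries, at 914 ± 143 CPM (SD, n = 6) against 753 ± 164 CPM (SD, n = 6) with CTL, with its lowest value, 455 CPM, in CTL 14 (log2 fold change 0.27, standard error 0.17, and 0.18 without CTL 14).

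The isozymes of phosphofructokinase, the committed step of glycolysis, followed different libraries. Pfkl, the liver form, was at 91.1 to 180 CPM, highest in HFB 1, with a log2 fold change of 0.11 (standard error 0.17). Pfkm, the muscle form, was at 41.1 to 107 CPM, highest in CTL 11, with a log2 fold change of 0.08 (standard error 0.24). Pfkp, the platelet form, was at 11.3 to 46.7 CPM, highest in CTL 14 and next highest in HFB 6, with a log2 fold change of -0.24 (standard error 0.30). All 3 signs turned in some alternative, that for Pfkl without HFB 1 (-0.025), that for Pfkm with the skeletal muscle score as a covariate (-0.02) and that for Pfkp without CTL 14 (0.07).

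Aldoc, the brain aldolase, differed 11.9-fold between libraries. It was at 1.73, 8.53 and 20.5 CPM (lowest, median and highest) with HFB and at 6.86, 12.8 and 15.7 CPM with CTL. HFB 1, HFB 2 and HFB 3, where Aldoa was highest, held the lowest Aldoc values (12, 4 and 9 counts), and HFB 6 the highest. The low end of the range is thus near the floor of 3 counts. Its log2 fold change was -0.34 (standard error 0.47), and in limma-voom it was -1.25 (unadjusted p under 0.05). It ranged from -0.74 without HFB 6 to -0.12 without HFB 2.

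Lower glycolysis makes the ATP of the pathway, and 5 of its 6 tested members had a log2 fold change above 0. Gapdh, which oxidises glyceraldehyde 3-phosphate, was at 301 ± 81.7 CPM (SD, n = 6) with HFB and 237 ± 59.2 CPM (SD, n = 6) with CTL (log2 fold change 0.34, standard error 0.20, and 0.22 without HFB 1). Pgk1, which forms the first ATP, was the member with the smallest ratio of highest to lowest library, 1.51, and was above the CTL median in 6 of 6 HFB libraries (log2 fold change 0.22, standard error 0.11). Eno1, the common enolase, gave 0.32 (standard error 0.18) in log2 fold change, with its highest level, 461 CPM, in HFB 6, without which it gave 0.21. Pkm, the pyruvate kinase of most tissues, was at 294 ± 31.3 CPM (SD, n = 6) with HFB and 252 ± 34.9 CPM (SD, n = 6) with CTL (log2 fold change 0.22, standard error 0.12). Each of these 4 had an adjusted p of 0.999 and overlapping groups. Eno2, the neuronal enolase, was at 1.94 CPM in HFB 6 and up to 12.8 CPM in HFB 4 and CTL 11. Its log2 fold change was -0.15 (standard error 0.35, and 0.05 without HFB 6). Gapdh, Pgk1, Tpi1, Eno1, Pkm and Ldha are among the members with pseudogene copies in mammalian genomes. The counting rule is not given in the sources used here, so their levels are uncertain where reads of such copies were split. Copies of the other members, Aldoa and Pgam1 included, were not looked up, and the same limit can hold for them.

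Of the other glycolysis genes, 7 of 12 matched companions were tested, and 0 had an adjusted p under 0.05 or an unadjusted p under 0.05 in edgeR's test. Eno3 and Pgam2, the muscle enolase and mutase, were named after their values had been seen. Eno3 ran from 19.1 CPM in CTL 10 to 525 CPM in HFB 6, and Pgam2 from 6.62 CPM in CTL 10 to 350 CPM in HFB 6. The same libraries had the lowest and highest sums of skeletal muscle markers.

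Lactate dehydrogenase interconverts pyruvate and lactate, with Ldha the muscle subunit and Ldhb the heart subunit. Ldha was at 443, 882 and 1073 CPM (lowest, median and highest) with HFB and at 456, 854 and 1002 CPM with CTL. Ldhb was at 438, 773 and 847 CPM with HFB and at 344, 645 and 825 CPM with CTL. For both subunits HFB 6 and CTL 14 were the lowest libraries, and HFB 1, HFB 2, HFB 3 and CTL 8 the highest 4. The log2 fold changes were 0.04 (standard error 0.22) for Ldha and 0.18 (standard error 0.22) for Ldhb, and without CTL 14 they were -0.07 and 0.07.

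The pyruvate dehydrogenase complex makes acetyl-CoA from pyruvate, and Pdha1 and Pdhb encode the subunits of its first enzyme. Pdha1 (Entrez 29554) was at 180, 660 and 918 CPM (lowest, median and highest) with HFB and at 195, 474 and 817 CPM with CTL. Pdhb (Entrez 289950) was at 89.9, 414 and 701 CPM with HFB and at 171, 271 and 509 CPM with CTL. Here too HFB 1, HFB 2, HFB 3 and CTL 8 were highest and HFB 6 and CTL 14 lowest, and HFB 5 was low at 279 CPM of Pdha1 and 215 CPM of Pdhb. The log2 fold changes, 0.22 for Pdha1 (standard error 0.39) and 0.44 for Pdhb (standard error 0.43), were within the spread between libraries, and with 4 marker scores as covariates they were -0.04 and -0.02. With single libraries left out they ranged from 0.0502 to 0.40 and from 0.23 to 0.65.

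The promoters of Pdhb and Ldha are printed because both genes had the same 4 highest and 2 lowest libraries and both windows hold CACGTG, which stands inside the capitals marking ACGTG. They are from the same table and build, Pdhb at chr15:19182539-19182838, plus strand, and Ldha at chr1:106507842-106508141, plus strand. The other members with CACGTG were Pdk2 and Pfkfb3. Pdha1 and Ldhb, which had the same 4 highest and 2 lowest libraries, have neither motif in their windows.
Pdhb: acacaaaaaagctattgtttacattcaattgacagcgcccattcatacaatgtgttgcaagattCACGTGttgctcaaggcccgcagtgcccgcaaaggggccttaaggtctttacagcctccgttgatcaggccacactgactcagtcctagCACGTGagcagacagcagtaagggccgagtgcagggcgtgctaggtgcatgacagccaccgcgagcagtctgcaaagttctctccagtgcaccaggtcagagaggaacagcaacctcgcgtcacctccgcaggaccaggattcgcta
Ldha: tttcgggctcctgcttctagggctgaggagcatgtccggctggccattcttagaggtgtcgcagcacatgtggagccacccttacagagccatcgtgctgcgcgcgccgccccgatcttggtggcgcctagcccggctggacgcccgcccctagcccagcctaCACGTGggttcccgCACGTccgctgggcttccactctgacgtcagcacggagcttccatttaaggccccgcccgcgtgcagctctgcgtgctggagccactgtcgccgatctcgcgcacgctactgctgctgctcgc

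The library pattern was counted after the values had been seen, and no test was made of it. HFB 1, HFB 2, HFB 3 and CTL 8 were the 4 highest libraries for 8 of the 29 tested members (27.6%), for 8 of 39 tested companions (20.5%) and for 122 of the 9382 genes tested (1.3%). The 8 members were Hk2, Gapdh, Ldha, Ldhb, Pdha1, Pdhb, Tkt and Taldo1. HFB 6 and CTL 14 were the 2 lowest for 7 members (24.1%), for 22 companions (56.4%) and for 1928 genes tested (20.5%). Pdk4 is among these 7, and its counts there were too low to rank. The part of adipocyte content in these patterns was not tested, and HFB 1, HFB 2, HFB 3 and CTL 8 had adipocyte scores of 10.98, 11.38, 11.10 and 11.29 (mean log2 CPM of the markers). HFB 2 and CTL 8 had the highest of all 12, while HFB 1 was level with CTL 7 and above HFB 5, HFB 6 and CTL 14 only, and HFB 3 lay below HFB 4, CTL 9 and CTL 10. The epithelium scores of HFB 1, HFB 2 and HFB 3 were low, at 3.85, 4.70 and 4.56, and that of CTL 8 was 5.65. CTL 9, which is not among these 4 libraries, was also low, at 4.68.

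**Figure D3:**
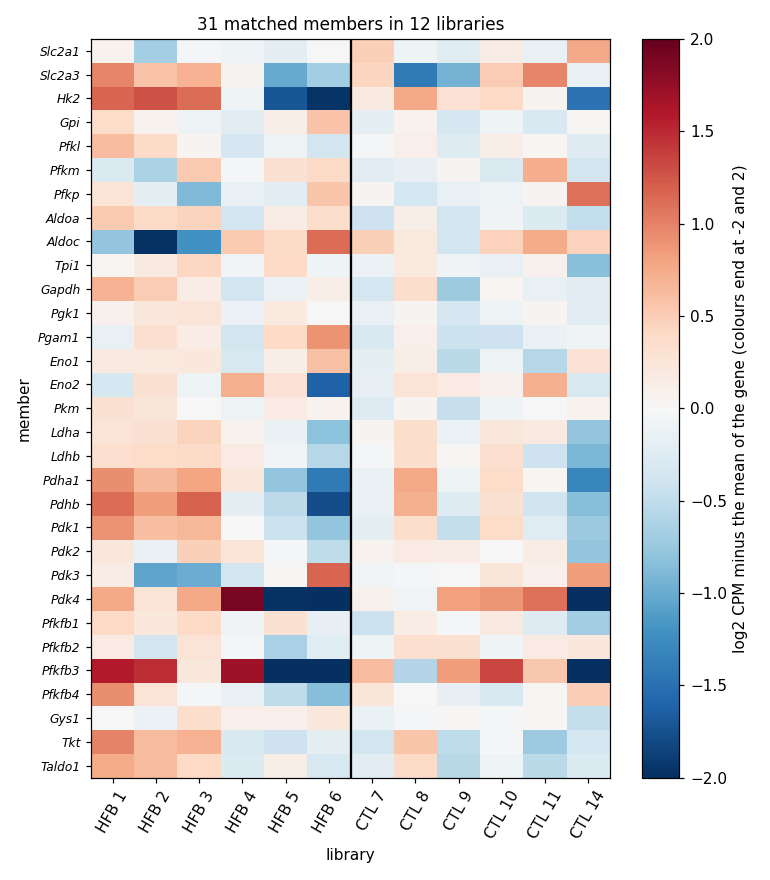
Levels of the 31 matched members (y axis) in the 12 libraries (x axis, HFB left of the line), as log2 CPM minus the mean of each gene, with colours ending at -2 and 2. Hk2, Pdha1, Pdhb, Pdk1 and Tkt are high in HFB 1, HFB 2 and HFB 3, and Hk2, Pdk4 and Pfkfb3 are low in HFB 5, HFB 6 and CTL 14.

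Pyruvate dehydrogenase kinases inactivate the complex by phosphorylation, and their genes differed in pattern. Pdk1, which is induced by hypoxia, was at 41.9 to 136 CPM, highest in HFB 1 (log2 fold change 0.38, standard error 0.29, and 0.22 without HFB 1). Pdk2, the widely expressed form, was at 58.8 to 142 CPM, with a log2 fold change of 0.09 (standard error 0.19). Pdk3 was at 4.76 to 25.2 CPM and was highest in HFB 6 and CTL 14 (log2 fold change -0.19, standard error 0.38). Without HFB 6 the log2 fold change of Pdk3 was -0.64 (unadjusted p under 0.05), and without CTL 14 it was 0.00. In limma-voom with all 12 libraries it was -0.67 (unadjusted p under 0.05). No kinase gene had an adjusted p under 0.999.

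Pdk4, induced by fasting and by fatty acids, was at 0.388, 5.88 and 16.3 CPM (lowest, median and highest) with HFB and at 0.00, 5.69 and 9.08 CPM with CTL. HFB 4 held the highest value, while HFB 5, HFB 6 and CTL 14 were each under 3 counts, so Pdk4 was not detectable there at this depth. Its log2 fold change was 0.19 (standard error 0.78), and without HFB 4 it was -0.44. HFB 4 also held the highest level of Pck1, 1323 CPM against 90.0 to 857 CPM elsewhere, a gluconeogenic gene that is active in fat and is induced by fasting. Pck1 was named after its values had been seen.

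Phosphofructokinase-2 enzymes set the level of fructose 2,6-bisphosphate, the activator of phosphofructokinase. Pfkfb3, the form with the highest kinase activity, differed 32.7-fold between libraries, more than any other member with over 3 counts in every library. It was at 1.95, 38.6 and 63.9 CPM (lowest, median and highest) with HFB and at 2.42, 29.0 and 49.2 CPM with CTL. HFB 5, HFB 6 and CTL 14 were the low libraries, between 1.95 and 3.49 CPM, and CTL 8 followed at 12.5 CPM. The log2 fold change was 0.38 with a standard error of 0.75, and it lay between 0.0924 (without HFB 4) and 0.67 (without CTL 10) with single libraries left out.

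Pfkfb1, known from liver and muscle, was steadier. It was at 115 ± 18.6 CPM (SD, n = 6) with HFB and 90.0 ± 20.6 CPM (SD, n = 6) with CTL, above the CTL median in 5 of 6 HFB libraries. The log2 fold change was 0.34 (standard error 0.16, 95% interval -0.01 to 0.69, adjusted p = 0.999). Without HFB 6 and CTL 14 it was 0.31 (unadjusted p under 0.05). Pfkfb2, the heart form, was at 2.73 to 6.06 CPM (log2 fold change -0.29, standard error 0.24, and -0.19 without HFB 5) and was above the CTL median in 1 of 6 HFB libraries. Pfkfb4 lay between 0.775 and 4.54 CPM.

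Gys1, the glycogen synthase of muscle and most tissues, was at 78.8 ± 8.97 CPM (SD, n = 6) with HFB and 68.1 ± 8.44 CPM (SD, n = 6) with CTL, with a log2 fold change of 0.21 (standard error 0.12). All 12 other glycogen genes matched and were tested, and 0 had an adjusted p or an unadjusted p under 0.05 in edgeR's test. Pygl, the liver glycogen phosphorylase, was the most abundant of them, at 100 to 485 CPM, lowest in HFB 6 and highest in HFB 1.

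Tkt, transketolase, and Taldo1, transaldolase, run the non-oxidative arm of the pentose phosphate route. Tkt (Entrez 64524) was at 665, 1072 and 1767 CPM (lowest, median and highest) with HFB and at 536, 689 and 1297 CPM with CTL. Taldo1 (Entrez 83688) was at 280, 419 and 588 CPM with HFB and at 237, 294 and 454 CPM with CTL. The HFB values fell into a high range, in HFB 1, HFB 2 and HFB 3, and a range near the CTL values, in HFB 4, HFB 5 and HFB 6, except that HFB 5 lay between them for Taldo1, and CTL 8 was the highest CTL library for both. The log2 fold change was 0.51 for Tkt (standard error 0.28, 95% interval -0.10 to 1.13). It was 0.45 for Taldo1 (standard error 0.21, 95% interval -0.01 to 0.91), and both had an adjusted p of 0.999. Without CTL 8 the values were 0.71 (unadjusted p under 0.05) and 0.58 (unadjusted p under 0.05), and without HFB 1 they were 0.34 and 0.33.

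All 7 other pentose phosphate and NADPH genes were tested, and 0 had an adjusted p under 0.05. Pgls, the lactonase of the oxidative arm, was the only companion gene of 39 tested with an unadjusted p under 0.05, against 2.34% of all genes tested. It was at 131 ± 48.6 CPM (SD, n = 6) with HFB and 94.0 ± 14.6 CPM (SD, n = 6) with CTL, with a log2 fold change of 0.47 (standard error 0.22, adjusted p = 0.999), and lay above the CTL median in 6 of 6 HFB libraries. HFB 6 and HFB 5 were the highest, at 210 and 170 CPM.

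Me1, the cytosolic malic enzyme that yields NADPH and pyruvate, was the most abundant gene of this list. It was at 152, 848 and 2828 CPM (lowest, median and highest) with HFB and at 225, 300 and 1312 CPM with CTL. HFB 1, HFB 2, HFB 3 and CTL 8 were again the highest libraries, and HFB 6 was the lowest. Its log2 fold change of 1.02 had a standard error of 0.68, so the difference was within the spread between libraries.

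Pyruvate transport and the rest of the pyruvate dehydrogenase complex gave 0 of 10 companions with an adjusted or an unadjusted p under 0.05 in edgeR's test, 7 with a log2 fold change above 0. Mpc1, a subunit of the mitochondrial pyruvate carrier and the most abundant of them, was at 159 CPM in HFB 6 and 1307 CPM in HFB 1. Its log2 fold change was 0.62 (standard error 0.49). Of the gluconeogenesis list, 3 of 6 matched genes were tested and 0 had an adjusted or an unadjusted p under 0.05, and Pc, pyruvate carboxylase, was the most abundant, at 532 CPM in CTL 14 to 1759 CPM in HFB 1. Over all companion lists 28 of 39 tested genes had a log2 fold change above 0, with a median of 0.13.

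Genes called the most abundant of a list are those with the most counts, with no correction for transcript length. Apart from that naming, levels were compared between libraries only, as was the ratio of isozymes. Of 13 isozyme ratios none passed (two-sided exact permutation tests of 6 libraries against 6, smallest possible p = 0.0022): 0 had an adjusted p and 0 an unadjusted p under 0.05. The smallest p was for the log2 ratio of Aldoc to Aldoa, which was -8.30 ± 1.38 (SD, n = 6) with HFB and -7.16 ± 0.45 (SD, n = 6) with CTL, a difference of -1.14 (exact permutation p = 0.108, adjusted p = 0.816, above the CTL median in 2 of 6 HFB libraries). HFB 1, HFB 2 and HFB 3 lay at or below -9.04 and the other 9 libraries at or above -7.73, so the HFB libraries were spread over both ranges. The low ratios rest on few Aldoc counts, 12, 4 and 9 in HFB 1, HFB 2 and HFB 3.

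The log2 ratio of Ldhb to Ldha was steadier, at -0.19 ± 0.10 (SD, n = 6) with HFB and -0.37 ± 0.26 (SD, n = 6) with CTL (exact permutation p = 0.126, adjusted p = 0.816). CTL 11, at -0.86, was the lowest library, and without it the difference of 0.18 was 0.0832. The ratio of Pfkfb1 to Pfkfb3 ran over 4.94 log2 units. That of Pdk4 to Pdk2 has no measured low end, since Pdk4 was not detectable in 3 libraries. HFB 5, HFB 6 and CTL 14 were the highest 3 libraries for the first and the lowest 3 for the second. Their differences between the diets were 0.40 (exact permutation p = 0.688) and -0.18 (exact permutation p = 0.805). The ratio of Pfkm to Pfkl was lowest in HFB 2 and highest in HFB 6, with a difference of 0.00 between the diets (exact permutation p = 0.991).

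**Figure D4:**
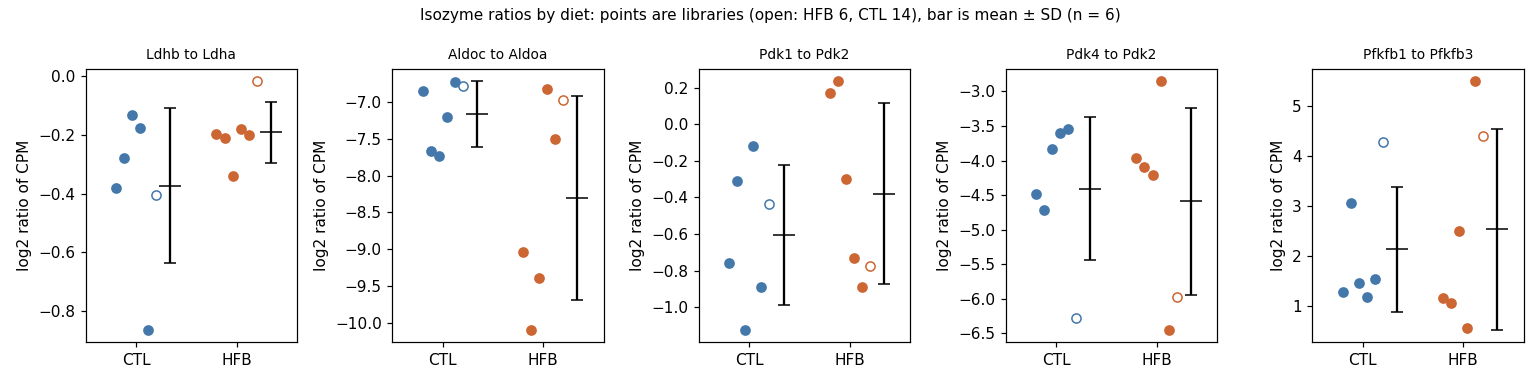
Log2 ratio of CPM (y axis) for 5 pairs of isozyme genes by diet (x axis), with a separate y scale for each pair. Each point is a library, open for HFB 6 and CTL 14, and the bar is the mean ± SD of 6 libraries. The diets overlap for each ratio, and HFB 1, HFB 2 and HFB 3 lie lowest for Aldoc to Aldoa.

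The tested members were set beside the scores of 4 marker lists over the 12 libraries, which gave 116 relations. For the skeletal muscle score, 1 of 29 members had an adjusted p under 0.05, Pfkm. Its level followed the score (Pearson r = 0.85, permutation p = 0.00046, adjusted p = 0.0252, Spearman rho = 0.90, permutation p = 0.00019, adjusted p = 0.022). Without HFB 1 and CTL 10, the libraries farthest from the median score, r was 0.95, and it was 0.92 within HFB and 0.77 within CTL.

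For the epithelium score, 6 of 29 members had an adjusted p of r under 0.05, Aldoc positive and Hk2, Pdha1, Pdhb, Pdk1 and Tkt negative. By rho, Aldoc, Pdk1 and Tkt did not pass, and Ldhb did. Ldhb gave r = -0.67 (permutation p = 0.0158, adjusted p = 0.0765, rho = -0.84, permutation p = 0.00115, adjusted p = 0.0267). Its rho was -0.82 without HFB 1 and HFB 3 (permutation p = 0.00571, adjusted p = 0.221). Hk2 gave r = -0.80 (permutation p = 0.00315, adjusted p = 0.0304, rho = -0.87, permutation p = 0.00058, adjusted p = 0.0224), and r was -0.77 without HFB 1 and HFB 3, the libraries farthest from the median score. Pdha1 gave r = -0.75 (permutation p = 0.00569, adjusted p = 0.0388, rho = -0.87, permutation p = 0.00048, adjusted p = 0.0224), and -0.66 without those libraries. Aldoc gave r = 0.82 (permutation p = 0.00157, adjusted p = 0.0252, rho = 0.69, permutation p = 0.0169, adjusted p = 0.158), and 0.81 without them. Pdhb gave r = -0.78 (permutation p = 0.00272, adjusted p = 0.0304, rho = -0.84, permutation p = 0.00106, adjusted p = 0.0267), and -0.64 without them. Pdk1 gave r = -0.76 (permutation p = 0.00532, adjusted p = 0.0388, rho = -0.76, permutation p = 0.00571, adjusted p = 0.0946), and -0.55 without them. Tkt, at r = -0.72 (permutation p = 0.00762, adjusted p = 0.0442, rho = -0.59, permutation p = 0.0445, adjusted p = 0.215), was at -0.42 without them. None of the 6 kept an adjusted p under 0.05 over the 10 libraries without HFB 1 and HFB 3 (the smallest was 0.273, for Aldoc). The r of Aldoc and Hk2 changed little there, and that of Tkt changed most. Within the diets, r in HFB and CTL was -0.97 and -0.04 for Tkt, -0.97 and -0.14 for Pdk1, -0.90 and -0.35 for Pdhb, -0.90 and -0.46 for Pdha1, -0.93 and -0.58 for Hk2 and 0.81 and 0.86 for Aldoc, and the difference between the diets was not tested. With the libraries farthest from the median of each score left out, 1 of the 116 relations had an adjusted p under 0.05, that of Pfkm with the skeletal muscle score (adjusted p = 0.00928).

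HFB 6 and CTL 14 form a cluster of their own in the adipocyte and lymphoid scores, so no r over all 12 libraries is given for these. Over the other 10 libraries, Hk2 had r = 0.71 with the adipocyte score (permutation p = 0.0285, adjusted p = 0.396, rho = 0.45, permutation p = 0.192, adjusted p = 0.737), and no member had an adjusted p under 0.05 with either score. With the adipocyte score there, r was 0.60 for Pdha1, 0.41 for Pdhb, 0.35 for Pdk1, 0.30 for Tkt and -0.43 for Aldoc. Each of these, like that of Hk2, was opposite in sign to the r with the epithelium score. Which of the scores these members follow was not tested. HFB 5, which shared low Hk2, Pfkfb3 and Pdk4 with HFB 6 and CTL 14, had a lymphoid score of 1.57 against 6.63 and 6.93 in those libraries, and an adipocyte score of 10.73 against 9.03 and 9.27. That adipocyte score was the lowest of the other 10 libraries. The same 3 libraries held the highest epithelium scores, at 6.46 in HFB 5, 6.43 in HFB 6 and 6.55 in CTL 14, with CTL 7 next at 6.21. Fabp4, the most abundant adipocyte marker, was highest of all 12 libraries in HFB 5. The other adipocyte markers were named after their values had been seen. Lpl, Plin1 and Pparg, at 1365, 672 and 279 CPM in HFB 5, were lowest there of the 10 libraries other than HFB 6 and CTL 14. Adipoq, Lep and Cidec in HFB 5 were neither lowest nor highest of those 10.

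**Figure D5:**
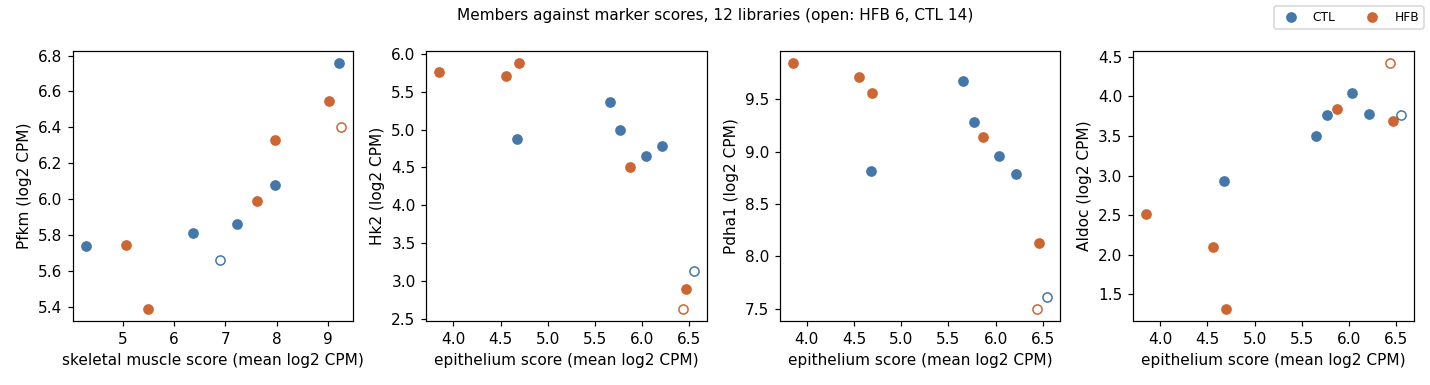
Log2 CPM (y axes) of Pfkm against the skeletal muscle score and of Hk2, Pdha1 and Aldoc against the epithelium score (x axes, mean log2 CPM of the markers). Each point is 1 of 12 libraries, coloured by diet and open for HFB 6 and CTL 14, and HFB 5, HFB 6 and CTL 14 lie lowest for Hk2 and Pdha1.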

How the data were processed

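The counts of reads per gene were deposited by the authors. The submitters' processing notes name bcl2fastq, CASAVA 1.8, TopHat, DESeq and rn4. The role of each in these counts, the counting rule and the use of strand are not given in the sources used here. Library depth was 2320267 to 2944680 counts.

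Gene symbols came from the Entrez identifiers through RefSeq (GRCr8), which named 16351 of the 16511 genes. The members and lists were chosen with earlier results of these data known. The lists were the members, companion genes (other glycolysis, gluconeogenesis, other pentose phosphate and NADPH, pyruvate transport and complex, glycogen) and markers of skeletal muscle, adipocytes, epithelium, lymphoid cells, brown fat, fibroblasts, endothelium and red blood cells.

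The diet comparison was run in R 4.3.3 with edgeR 4.0.16 (TMM normalization, filterByExpr, quasi-likelihood test). Its p values were adjusted by Benjamini-Hochberg, and the adjusted threshold was 0.05. Log2 CPM used a prior count of 2. Ratios were tested by exact permutation, and correlations by 100000 resamples in Python 3.11.15 with scipy 1.17.1. The gene fits were tested on simulated data. All 30 pairs of libraries within a diet were compared, and none were copies (lowest chi-square per degree of freedom 7.1).

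The rule for naming genes takes every member, companions with an unadjusted p under 0.05, the most abundant companion of each list, and for each marker list the most abundant gene and those at 0 throughout. Other genes are named as chosen after their values had been seen.

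The alternatives were DESeq2 1.42.0, limma 3.58.1 (voom with sample quality weights), DESeq2 size factors, upper-quartile normalization, no filter on low counts, at least 10 counts in every library, the skeletal muscle score or 4 marker scores as covariates, a prior count of 0.5, each library left out in turn, HFB 6 and CTL 14 left out together, and correlations without the 2 libraries farthest from the median score. Hk1 and Pgd are not analysed here, so the ratio of Hk2 to Hk1 was not run, and protein identity of the isozymes was not run.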

Additional observations from a re-analysis of the deposited data

Results flagged for a closer look

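In each of these, 1 library lay far from the other 5 of its diet. Pfkm was at 107 CPM in CTL 11, and the nearest CTL library was at 66.9 CPM. Pfkp was at 46.7 CPM in CTL 14, and the nearest CTL library was at 22.4 CPM. Pdk2 was at 58.8 CPM in CTL 14, and the nearest was at 102 CPM. Pdk3 was at 25.2 CPM in HFB 6, with the nearest HFB library at 11.97 CPM, and at 19.7 CPM in CTL 14, with the nearest CTL library at 12.9 CPM. Gys1 was at 51.9 CPM in CTL 14, and the nearest was at 66.1 CPM. For independent and normally distributed groups, about 1 in 20 would lie this far out by chance. That is 3.05 of the 61 groups examined, and 6 did. The groups here share samples and are not independent. In all flags but that of Pfkm the library was HFB 6 or CTL 14, so no excess over chance can be read from these numbers.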

How the results depend on the processing

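No gene had an adjusted p under 0.05 in any alternative. At an unadjusted p under 0.05, 220 genes passed, against 613 in limma-voom, 910 with 4 marker scores and 431 without HFB 6 and CTL 14. With single libraries left out the number lay between 135 (without HFB 5) and 587 (without CTL 14), and HFB 1, HFB 4, CTL 7, CTL 10 and CTL 11 also moved it by more than 1.5 times. Of the members, 2 passed, against 5 in DESeq2, 11 in limma-voom, 4 with 4 marker scores and 1 to 8 with single libraries left out. HFB 2, HFB 4, HFB 6, CTL 7, CTL 8, CTL 9 and CTL 11 each moved this by more than 1.5 times. Members with a log2 fold change above 0 numbered 20 to 24. Aldoa passed in every alternative. Pgam1 did not in limma-voom, with the skeletal muscle score, without HFB 6 and CTL 14, or without any 1 of HFB 2, HFB 5, HFB 6, CTL 7, CTL 9, CTL 10 and CTL 11. Of 13 ratios, 0 to 1 passed with single libraries left out. Of 116 relations, 20 had an adjusted p of r under 0.05 (5 by rho), 10 of them with the adipocyte and 3 with the lymphoid score, where HFB 6 and CTL 14 stand apart, and 1 without the 2 farthest libraries.

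The log2 fold change kept its direction in every alternative for 18 of 29 members, and the difference for 8 of 13 ratios. With 4 marker scores it turned for Hk2 (-0.25), Pdha1 (-0.0362), Pdhb (-0.0158), Eno2 (0.0126) and Pfkm (-0.0473). Pfkm also turned in limma-voom (-0.0574), with the skeletal muscle score (-0.0216) and without HFB 6 and CTL 14 (-0.0513), where the ratios of Pfkm to Pfkl (-0.17) and Pfkfb4 to Pfkfb3 (0.27) turned too.

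Ranges with single libraries left out crossed 0 for Eno2 (-0.36 to 0.0542), Ldha (-0.0714 to 0.16), Pdk2 (-0.0193 to 0.18), Pdk3 (-0.64 to 0.0041), Pdk4 (-0.44 to 0.43), Pfkl (-0.025 to 0.18), Pfkm (-0.0216 to 0.29) and Pfkp (-0.41 to 0.0721). They did so for the ratios of Pdk4 to Pdk2 (-0.56 to 0.19), Pfkfb1 to Pfkfb3 (-0.20 to 0.82), Pfkfb2 to Pfkfb3 (-0.72 to 0.30), Pfkfb4 to Pfkfb3 (-0.54 to 0.55) and Pfkm to Pfkl (-0.14 to 0.21). The cause was not tested. Aldoc, Eno2, Pdk4, Pfkfb2 and Pfkfb3 did not reach 10 counts in every library and were not tested there. Library numbers do not recur between the diets, so no paired analysis could be made.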
